A study of Homo sapiens with 43 samples.

Results

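The genes described here are 7 cancer genes on the long arm of human chromosome 3 that lie beside SOX2: MECOM, PRKCI, ECT2, TBL1XR1, PIK3CA, DCUN1D1 and ETV5. They were taken by position, as the hg19 gene span, given to the nearest kb, with 20 kb on each side, and all 7 windows held peaks. The windows summed to 1393 kb of the 17.066 Mb between the first and the last of them, and held 85 of the 114125 H3K27ac regions that the lists of 13 lung squamous cell carcinoma lines give when merged. The spans on hg19 chromosome 3 were 168801001 to 169382000 for MECOM, 169940001 to 170024000 for PRKCI, 172468001 to 172540000 for ECT2, 176738001 to 176915000 for TBL1XR1, 178866001 to 178953000 for PIK3CA, 182655001 to 182704000 for DCUN1D1 and 185764001 to 185827000 for ETV5. No annotation of that build was used, so exons, introns and UTRs inside the spans, and other genes in the flanks, are not given.

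The study mapped peaks by chromatin immunoprecipitation and sequencing (ChIP-seq) in established lung squamous cell carcinoma lines, and its title asks about a class of these tumours with SOX2 and BRN2. Of 43 samples, 27 had a peak list and 16 inputs were not analysed here. The labels name an input for every line except HCC95. Of the lists, 17 are for H3K27ac (acetylated lysine of histone H3, found at active regulatory DNA), 7 for Sox2, 2 for Brn2 and 1 for p63. The lines were kept in the same medium without treatment, per the labels, and were grouped by the experiments named for them. Set A is LK2 and NCI-H520 (H3K27ac, with 2 libraries each, Sox2 and Brn2). Set B is HCC95, KNS62 and HCC2814 (H3K27ac and Sox2). Set C is Calu-1, EBC-1, HARA, HCC2279, HCC2450, LC-1/SQSF, NCI-H2887 and SQ-1 (H3K27ac alone). The sets state what was profiled, and not which factors a line makes. LK2_GFP (H3K27ac and Sox2) and LK2_DNp63 (H3K27ac, Sox2 and p63) are derivatives of LK2, and no source used here says how they were made. GFP is a fluorescent protein and DNp63 the usual name of the p63 isoform of basal cells. The files used here hold no expression values, so the labelled cell type was not checked against marker RNAs. The labels name no separate cultures behind the libraries. A p-value here uses 1 value per line and therefore reflects only how these lines vary. Technical differences between libraries are part of that spread and were not separated from it.

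The long arm of chromosome 3 is often gained in squamous tumours, and SOX2 and PIK3CA are the best known genes of the gained stretch. SOX2 encodes a factor of stem and progenitor cells. BRN2 is a POU factor best known from neural development, and p63 specifies basal and squamous epithelium. Among the 7 genes, ETV5 encodes an ETS-family transcription factor downstream of growth factor signalling, MECOM the zinc finger factor known as EVI1, and TBL1XR1 a subunit of the NCoR/SMRT corepressor complex. PRKCI encodes atypical protein kinase C iota, ECT2 a protein needed for cell division, PIK3CA the catalytic subunit p110 alpha of phosphoinositide 3-kinase, and DCUN1D1 a protein that promotes the attachment of NEDD8 to cullins. The copy number of these genes in the lines was not analysed here.

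RefSeq promoter sequences (GRCh38.p14) were matched by symbol for 6 of the 7 genes, with 11 entries. The 250 bases before the start are shown for ECT2 and TBL1XR1, whose hg19 start ends carried both Sox2 and Brn2 peaks, and for PRKCI and DCUN1D1, the promoters of the 6 genes that hold the letters CATTGT, the core of SOX-type motifs, on either strand. Each is written 5′ to 3′ on the gene's strand, and capitals mark CATTGT or its reverse ACAATG.
ECT2, chr3:172750476-172750725, plus strand: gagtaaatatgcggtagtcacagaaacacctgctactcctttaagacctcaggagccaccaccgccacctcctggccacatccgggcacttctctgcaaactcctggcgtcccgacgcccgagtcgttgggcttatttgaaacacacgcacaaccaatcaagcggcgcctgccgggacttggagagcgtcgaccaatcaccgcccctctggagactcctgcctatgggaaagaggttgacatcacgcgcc
TBL1XR1, chr3:177197483-177197732, minus strand: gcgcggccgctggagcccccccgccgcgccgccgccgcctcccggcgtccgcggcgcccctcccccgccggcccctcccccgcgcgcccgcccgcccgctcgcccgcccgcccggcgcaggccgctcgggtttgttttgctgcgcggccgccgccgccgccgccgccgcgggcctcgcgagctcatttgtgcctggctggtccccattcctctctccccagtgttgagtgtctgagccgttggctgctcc
PRKCI, chr3:170222174-170222423, plus strand: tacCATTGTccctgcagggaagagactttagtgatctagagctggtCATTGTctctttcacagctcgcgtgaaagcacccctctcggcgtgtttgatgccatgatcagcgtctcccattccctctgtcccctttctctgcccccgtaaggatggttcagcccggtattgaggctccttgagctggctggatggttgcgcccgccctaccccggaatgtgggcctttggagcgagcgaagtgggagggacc
DCUN1D1, the upstream of 2 RefSeq starts, chr3:182985919-182986168, minus strand: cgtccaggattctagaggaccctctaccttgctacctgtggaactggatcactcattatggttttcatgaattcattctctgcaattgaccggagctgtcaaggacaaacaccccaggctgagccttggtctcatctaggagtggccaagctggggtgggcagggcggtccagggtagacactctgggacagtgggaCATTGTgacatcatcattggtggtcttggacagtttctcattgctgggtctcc

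CATTGT stood in 2 of the 11 entries and in 9.29% of the 35116 promoter entries in the table. The octamer ATGCAAAT of POU factors stood in none of the 11 and in 1.63% of all entries, and ACATGTC, letters found in p63-type motifs, in none of the 11 and in 1.32% of all. The motifs were searched on both strands and do not overlap one another in these entries. The PRKCI promoter held CATTGT at 2 places, whereas the ECT2 and TBL1XR1 stretches, with 58.4% and 81.2% of G and C, held it nowhere. These coordinates are on GRCh38.p14 and the peaks on hg19, so whether a peak covers these bases was not read.

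The depth of the libraries is unknown, since the files hold peaks and no reads. An H3K27ac list held between 16470 and 43480 peaks, with a cover of 24.6 to 73.7 Mb, and a factor list between 1298 and 14048 peaks. Covered length was therefore also scaled to the same total in each library (53.0 Mb), and it is called the scaled length below. A scaled length can change with how much was called elsewhere in the genome, and a window without a peak is not shown to lack the mark. The 2 libraries of LK2 and of NCI-H520 were averaged. Per unit of length, the median share of the window under H3K27ac peaks in the 13 lines was highest in ETV5 (6.81%), followed by TBL1XR1 (5.81%), ECT2 (4.54%), MECOM (3.38%), PRKCI (2.85%), PIK3CA (2.79%) and DCUN1D1 (2.57%). The ranges over lines overlapped throughout, from 0 to 39.7% in ETV5 and from 1.21 to 6.90% in DCUN1D1.

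On the scaled length, ETV5 and ECT2 carried more H3K27ac in LK2 and NCI-H520 than in any other line, and MECOM carried less there than in any line of set C; without scaling LK2 fell among the other lines in ECT2. Over tested bins of 50 kb, 2 of the 13 bins touching the windows exceeded set B in set A, 1 in ETV5 and 1 in ECT2, and none was lower (limma, adjusted p under 0.05), against 3.25% higher and 6% lower of all 9148 bins. Against set C, 3 bins were higher, in ETV5, ECT2 and TBL1XR1, and 1 was lower, in MECOM, where 5.6% and 7.65% of all bins were. Without scaling, 1 bin remained against set B and 2 against set C, and the calls among all bins against set C split into 198 higher and 932 lower, where scaling gave 512 and 700. Between sets B and C no bin was called by limma (0 of the 13 and 0% of all), and 2 of the 13 and 1079 of the 9148 bins had an unadjusted p under 0.05. Counted by values that do not overlap, set A was above set B in 5 of the 13 bins and below in 2 (12.7% and 26.7% of all bins), above set C in 4 and below in 2 (9.34% and 9.62%), and set B was above set C in 1 and below in 0 (1.63% and 0.339%). The 13 bins had a median log2 difference of -0.12 for set A minus set B, where all bins had -0.21, and of 0.39 for set A minus set C, where all bins had -0.15. The called bins in these windows were few, and their number in each direction is given beside the genome's share without a test of the list. The ETV5 bin among them was known to hold Brn2 and Sox2 peaks when the gene was chosen. It also passed the length filter through set A, so its place in these counts is a description. In the 84 tested bins between the first and the last window, set A exceeded set B in 2 (2.38%), the ETV5 and ECT2 bins, and fell below it in 7 (8.33%). It exceeded set C in 11 (13.1%) and fell below it in 9 (10.7%). The median log2 differences of these 84 bins were -0.12 for set A minus set B and 0.28 for set A minus set C. For set B minus set C the median was 0.50 in the 13 bins, 0.39 in the 84 and 0.11 in all bins.

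**Figure D1:**
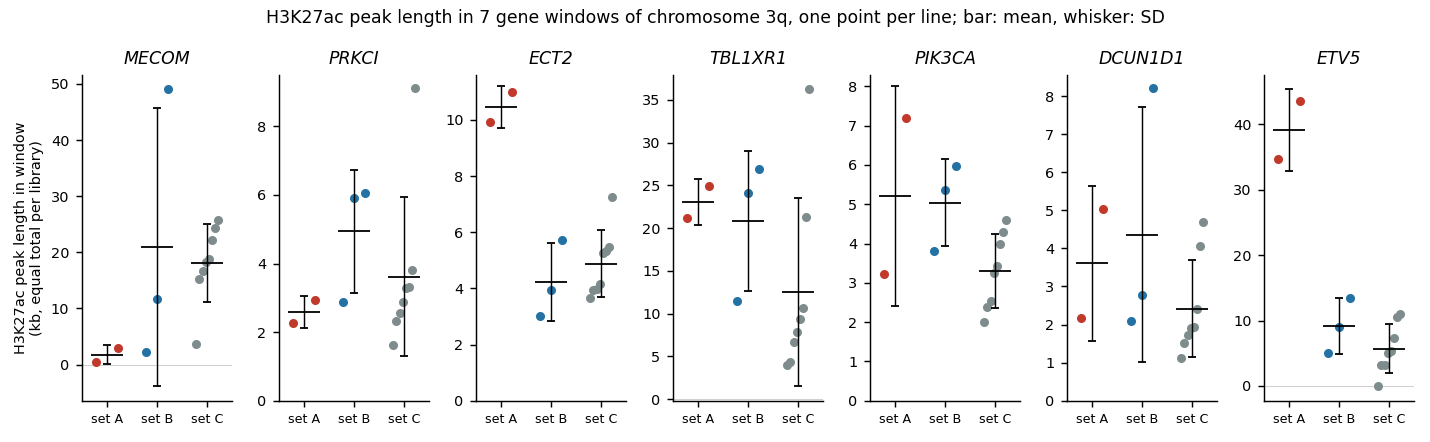
H3K27ac peak length in the 7 gene windows (kb, scaled to an equal total per library; y axes differ). Each point is 1 line of set A (2 lines), set B (3) or set C (8), the horizontal bar is the mean and the whisker the SD; the set A points stand above all others in ETV5 and, on this scale but not without scaling, in ECT2, and KNS62 is the highest point in MECOM at 49.0 kb.

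ETV5 had the widest separation of the sets. In scaled length, LK2 had 34.7 kb (libraries at 30.8 and 38.5 kb) and NCI-H520 43.5 kb (40.5 and 46.6 kb). In set B, HCC95 had 13.5 kb, KNS62 9.06 kb and HCC2814 5.0 kb. The set C lines ran from 0 in HCC2450 over a median of 5.2 kb to 10.96 kb in LC-1/SQSF. Both set A lines were above every other line, and unscaled lengths gave the same picture, with 17.4 and 40.8 kb in set A and at most 14.7 kb elsewhere. The means were 39.1 ± 6.26 kb (SD, n = 2) in set A, 9.18 ± 4.24 kb (SD, n = 3) in set B and 5.70 ± 3.77 kb (SD, n = 8) in set C. The difference from set C had p = 0.0222 in a two-sided exact permutation test, the smallest that 2 against 8 lines allow. That from set B had an exact permutation p of 0.1, also the smallest that 2 against 3 lines allow. ETV5 was chosen with Brn2 and Sox2 peaks in its window known, and Brn2 was profiled in set A alone. The window p-values are therefore a description of these lines and not an independent test.

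The difference in ETV5 lay mostly, but not wholly, in the part of the span away from the edge that was acetylated in most lines. In the bin from 185750001 to 185800000, which holds the low end of the span, LK2 had 15.2 scaled kb and NCI-H520 27.7 kb. LC-1/SQSF had 1.21 kb, and the other 10 lines listed no peak there. Set A exceeded set B in the bin by 4.42 on the log2 scale (SE 0.53, limma adjusted p = 0.000195) and set C by 4.28 (SE 0.46, limma adjusted p = 4.70e-05), both on log2(scaled length + 1000 bp). These were the differences ranked 45 and 54 from the top among the 9148 bins. The bin passed the 2000 bp filter through set A, since its mean was 0 in set B and 0.151 kb in set C. Of the 11 lines outside set A, 10 were at 0, so the spread behind the SE came largely from lines without a listed peak. ETV5 was also chosen with overlapping Brn2 and Sox2 peaks in this bin known. The adjusted p-values are therefore a description of these lines and not an independent test. With NCI-H520 left out the bin's mean fell under the 2000 bp filter and it was not tested. Without that filter LK2 alone differed by 4.0 from set B and by 3.86 from set C. A lone line has no spread of its own and the spread then comes from the other sets, in which 10 of 11 lines are at 0, so these values are a description. In the next bin, from 185800001, the groups did not overlap (17.5 ± 2.78 kb in set A, n = 2, at most 13.5 kb in the other lines), but the differences of 0.94 and 1.77 did not pass (limma adjusted p = 0.56 and 0.11).

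Of the 12 merged H3K27ac regions in the ETV5 window, 2 were listed in LK2 and NCI-H520 alone, at 185758725 to 185767188 and at 185784614 to 185791839, and another at 185770462 to 185780147 was shared by set A and LC-1/SQSF. At the high end of the span a region from 185818497 to 185828643 was acetylated in 12 of the 13 lines, all but HCC2450, and the region beside it from 185813050 to 185818387 in 9. RefSeq gave no ETV5 start here, so both ends are described. Within 5 kb of the low end 2 lines had a peak, LK2 and NCI-H520, and within 5 kb of the high end 12 lines had.

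Sox2 and Brn2 peaks stood in the stretches acetylated in set A. At 185761986 to 185763334 NCI-H520 had a Sox2 peak that ranked 79 of 12048 in its list, overlapped by a Brn2 peak of the same line, and LK2_GFP had a Sox2 peak. At 4 further sites, starting at 185771634, 185777856, 185786438 and 185787949, LK2 had Sox2 and Brn2 peaks that overlapped, and at the last of them NCI-H520 had Sox2 as well. No set B line had a Sox2 peak at these 5 sites, and H3K27ac at each was listed in LK2 and NCI-H520 and in no other line. ETV5 was chosen with the number of overlapping Brn2 and Sox2 peaks in this bin known, so these sites are a description.

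Towards the high end the Sox2 sites were shared more widely. The site at 185814799 to 185816421 had Sox2 peaks in all 5 lines profiled, in both derivatives, and a p63 peak in LK2_DNp63, and was the 1 site of the 54 Sox2 sites in the 7 windows with all 5 lines, against 0.819% of the 35551 Sox2 sites in the genome. The Sox2 peak there ranked within the upper 1.56% of the list in HCC95 and the upper 2.63% in NCI-H520, and at 17.5% in KNS62. At 185820284 to 185822617 LK2, NCI-H520, HCC95 and KNS62 had Sox2 and LK2 had Brn2, the highest Brn2 peak in the 7 windows by rank (16.2% of its list). At 185826294 to 185827383, on the high end, both Brn2 lists had a peak, with Sox2 in NCI-H520 and HCC95.

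**Figure D2:**
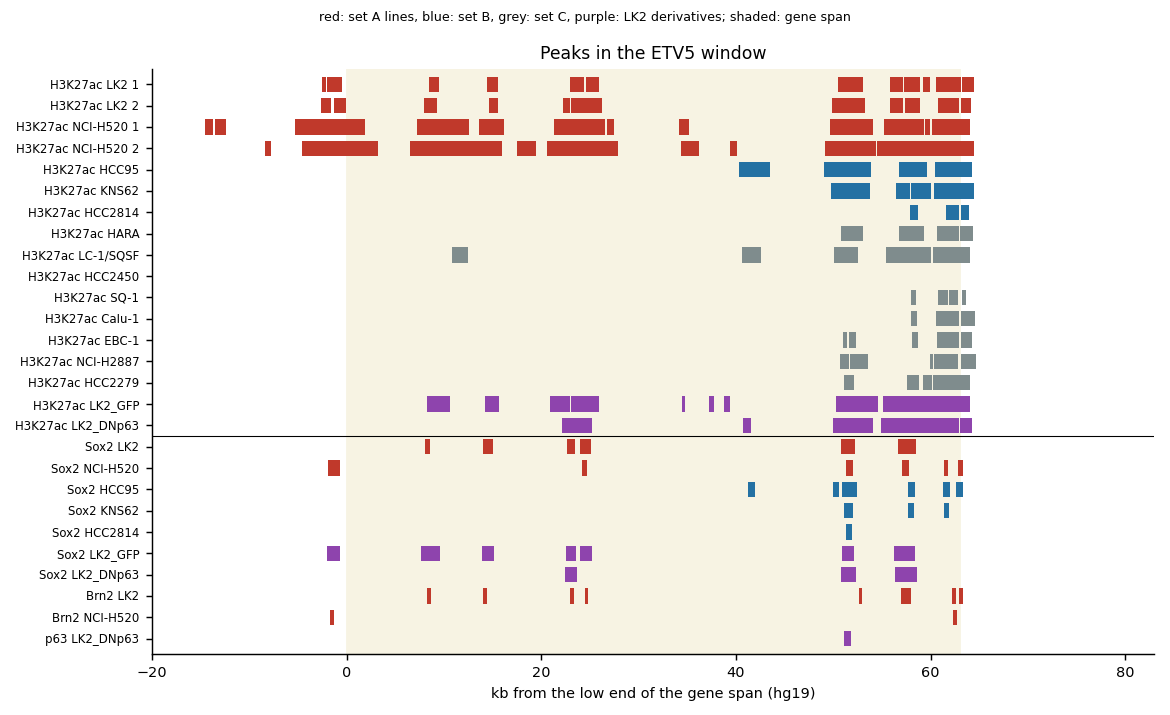
Peaks of every list in the ETV5 window by distance from the low end of the gene span (kb), 1 row per library, H3K27ac above the line and factors below; peaks under 0.35 kb are drawn at that width. Between -5 and 30 kb H3K27ac is listed in LK2, NCI-H520, the LK2 derivatives and, at 1 place, LC-1/SQSF, whereas 12 of 13 lines have it at the high end.

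MECOM went the other way. LK2 had 2.92 scaled kb (libraries at 4.20 and 1.64 kb) in a window of 621 kb, and NCI-H520 0.530 kb (0 and 1.06 kb). In set B, HCC2814 had 2.20 kb, HCC95 11.7 kb and KNS62 49.0 kb, and set C ran from 3.68 kb in NCI-H2887 over a median of 18.5 kb to 25.8 kb in Calu-1. As means of their libraries both set A lines were below every set C line, although the higher LK2 library alone was above NCI-H2887, while HCC2814 was lower than LK2 and set B spanned the whole range. The mean was 1.73 ± 1.69 kb (SD, n = 2) in set A and 18.1 ± 6.89 kb (SD, n = 8) in set C, with p = 0.0222 in a two-sided exact permutation test, the smallest possible. With equal numbers of top peaks the difference was -12.6 kb and the exact permutation p 0.0667. The exact permutation p was 0.5 against set B, whose mean was 21.0 ± 24.8 kb (SD, n = 3), and 0.758 for set B against set C. Set B minus set C was 2.85 kb with KNS62 and -11.2 kb without it.

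The MECOM bin that differed was at the low end of the span, from 168800001 to 168850000. LK2, NCI-H520 and HCC2814 listed no H3K27ac there, NCI-H2887 had 0.442 kb and the other 7 set C lines 5.38 to 13.5 kb. The difference of set A from set C was -2.84 on the log2 scale (SE 0.78, limma adjusted p = 0.0287). It lost its call without LK2 (limma adjusted p = 0.209), without NCI-H520 (0.196), with a pseudocount of 5000 bp (0.0577) and with equal numbers of top peaks (0.0966). Of the 35 merged regions in the window, 16 were in several lines but in neither set A line, 16 were in 1 line, and none was in all 13. The 2 most shared, at 168860958 to 168868515 and at 169375888 to 169382428 on the high end, where RefSeq's strand places the start of the longest form, were each acetylated in 11 lines. RefSeq lists 3 MECOM starts on GRCh38.p14, with the other two 516 and 517 kb inside the first.

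Sox2 peaks in MECOM differed between lines as well. KNS62 had 10, LK2 6, HCC95 5, NCI-H520 2 and HCC2814 2. In KNS62 9 of the 10 lay on its own H3K27ac peaks, in HCC95 2 of 5, and in LK2 (6), NCI-H520 (2) and HCC2814 (2) none. The highest of LK2 and NCI-H520 was at 168921391 to 168922618, at 10.7% and 7.30% of their lists, with Brn2 in LK2, and no line had H3K27ac there. Of 5 Brn2 peaks in LK2, 4 overlapped Sox2 and none lay on LK2 H3K27ac. At 168821981 to 168823310 the LK2 Sox2 and Brn2 peaks coincided with a Sox2 peak of KNS62 and with H3K27ac in KNS62 and 5 set C lines, but not in LK2. At 168803255 to 168804301 HCC95 (rank 160 of 14048), KNS62 and HCC2814 had Sox2, LK2_DNp63 had p63, and 7 lines had H3K27ac, none of them in set A. LK2_GFP also had a Sox2 peak at that site (81.1% of its list), without H3K27ac of its own. Another p63 peak, at 168808756 to 168809685, lay on a Sox2 peak of HCC95.

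**Figure D3:**
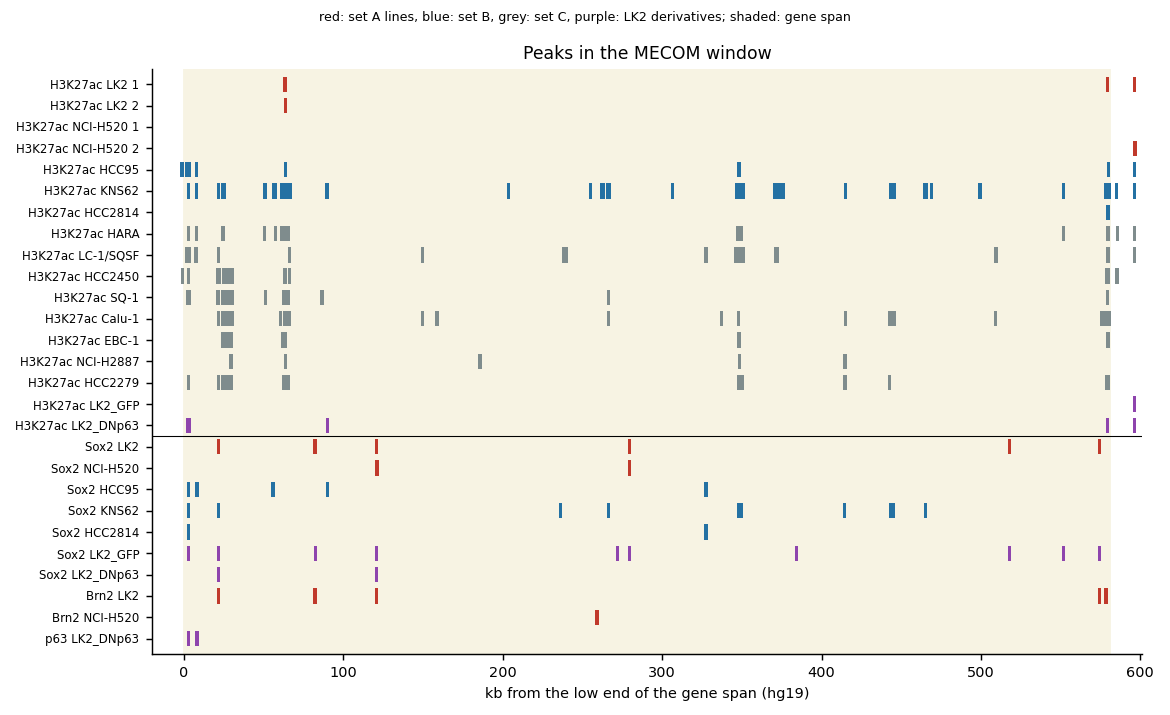
Peaks of every list in the MECOM window by distance from the low end of the gene span (kb), 1 row per library; peaks under 2 kb are drawn at that width. LK2 and NCI-H520 have 0 to 3 H3K27ac peaks per library, KNS62 and most set C lines have clusters at the low end, near 65 kb and at the high end.

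ECT2 had few regions and the lowest spread over the lines but 1, with a standard deviation of 43.6% of the mean in scaled length (PIK3CA 37.1%). LK2 had 9.91 kb (libraries at 6.64 and 13.2 kb) and NCI-H520 10.97 kb. HCC2814 had 5.74 kb, HCC95 3.93 kb and KNS62 3.01 kb, and set C ran from 3.65 kb in HCC2450 over a median of 4.71 kb to 7.26 kb in NCI-H2887. The set A lines stood above all others on this scale, although the lower LK2 library alone was below NCI-H2887. The difference from set C was 5.56 kb (10.4 ± 0.750 kb, n = 2, against 4.88 ± 1.20 kb, n = 8; two-sided exact permutation p = 0.0222, the smallest possible), and that from set B, at 4.22 ± 1.39 kb (n = 3), had an exact permutation p of 0.1, the smallest possible. Without scaling the values of LK2 (4.89 kb) fell among the others and the exact permutation p against set C was 0.156. In the bin from 172450001 to 172500000 set A was higher by 1.13 (SE 0.30, limma adjusted p = 0.0342) than set B and by 0.95 (SE 0.26, limma adjusted p = 0.0301) than set C on the log2 scale. The calls were kept in 4 of 14 and 12 of 19 alternatives. Both were lost without scaling (limma adjusted p = 0.194 and 0.371), with equal numbers of top peaks (0.205 and 0.210), with replicate 1 alone (0.103 and 0.101), with no filter (0.0608 and 0.0624), without LK2 (0.109 and 0.125) and without NCI-H520 (0.220 and 0.232), and that against set B also without HCC95 (0.0918) and without KNS62 (0.114). The neighbouring bin from 172400001, which touches the window only at its low end, was lower in set A than in every set C line, and that difference of -1.20 did not pass (limma adjusted p = 0.14).

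The ECT2 window held 3 merged regions. The start region, 172463717 to 172472174, was acetylated in all 13 lines. Inside the gene, 172479864 to 172486108 was acetylated in LK2 and NCI-H520 alone. The remaining region was in HARA and NCI-H520. At the start, from 172466346 to 172468758, Sox2 peaks were listed in LK2, HCC95, KNS62 and HCC2814 and in both derivatives, with Brn2 in LK2. The Sox2 peak of LK2 ranked 41 of 7611 and that of KNS62 146 of 8907. NCI-H520 had no Sox2 peak at the start. In the region of set A, at 172482308 to 172483422, LK2, NCI-H520 and HCC2814 had Sox2 and LK2 had Brn2, and HCC2814 had no H3K27ac there. The LK2 Brn2 peak there was the highest Brn2 peak in the window, at 20% of its list.

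TBL1XR1 was broadly acetylated in some lines of every set. HARA had 36.2 scaled kb, HCC2814 26.9, NCI-H520 24.9, HCC95 24.1, LC-1/SQSF 21.3, LK2 21.2 and KNS62 11.5 kb, and the other 6 set C lines had 4.03 to 10.6 kb. The sets overlapped, and set A minus set C was 10.5 kb (23.03 ± 2.65 kb, n = 2, against 12.54 ± 10.996 kb, n = 8; exact permutation p = 0.244). Set B minus set C was 8.26 kb, with an exact permutation p of 0.309. Without HARA it was 11.6 kb (exact permutation p = 0.0167). HARA was the highest line of set C, so leaving it out must widen the difference, and that p is a description. The bin from 176800001 to 176850000 was higher in set A (7.10 ± 0.621 kb, n = 2) than in set C (1.19 ± 1.80 kb, n = 8), by 2.20 on the log2 scale (SE 0.64, limma adjusted p = 0.0367). HARA had 5.29 kb there, close to HCC2814 (5.44 kb) and HCC95 (6.25 kb), and set B was in between, at 4.50 ± 2.37 kb. That call was kept in 7 of 18 alternatives, and was lost without LK2 (limma adjusted p = 0.211), NCI-H520 (0.232), Calu-1 (0.0557), EBC-1 (0.0525), HCC2279 (0.0555) or SQ-1 (0.0505).

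Of the 14 regions in the TBL1XR1 window, the 1 in all 13 lines was the start region at the high end, 176903204 to 176920357, the longest in the 7 windows at 17154 bp. A Sox2 and Brn2 site of LK2 lay there, at 176914941 to 176917638, with Sox2 in NCI-H520 and HCC2814. In the called bin, 176827332 to 176829889 had Sox2 in NCI-H520, HCC95 and HCC2814 and in both derivatives, and H3K27ac in both set A lines, all set B lines, HARA and LC-1/SQSF. The neighbouring site at 176825969 to 176826944 had Sox2 in HCC95 (5.69% of the list) and HCC2814. The highest Sox2 peak of the window by rank was in KNS62 (4.66% of its list), at a site from 176897047 to 176897910 shared with HCC95 and HCC2814. A p63 peak of LK2_DNp63 at 176895390 to 176896393, the highest p63 peak in the windows at rank 261 of 3159, overlapped Sox2 of HCC95 and HCC2814. The stretch was acetylated in NCI-H520, all of set B, HARA and LC-1/SQSF but not in LK2. Both derivatives, LK2_GFP as well as LK2_DNp63, listed H3K27ac overlapping that p63 peak. A further site of LK2 Sox2 and Brn2, at 176753361 to 176754239 with Sox2 in NCI-H520, was not acetylated in any line. HCC2814 had 8 Sox2 peaks in this window, more than any other line, and 5 of them lay on its own H3K27ac.

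**Figure D4:**
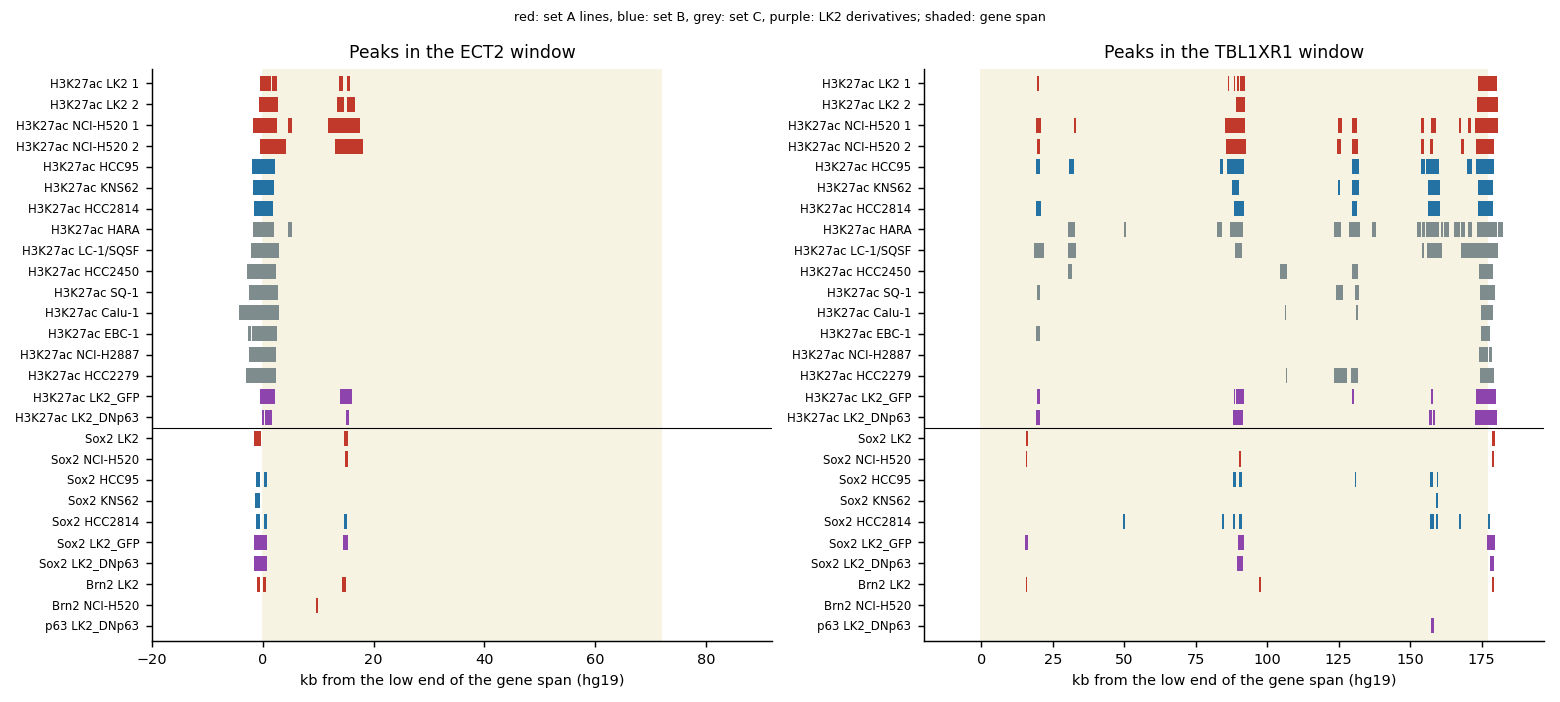
Peaks of every list in the ECT2 and TBL1XR1 windows by distance from the low end of each gene span (kb), 1 row per library; peaks under 0.5 kb are drawn at that width. In ECT2 the start is acetylated in every library and the stretch near 15 kb in LK2, NCI-H520 and the derivatives; in TBL1XR1 the high end is acetylated in every library.

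PRKCI, PIK3CA and DCUN1D1 each held 1 region shared by every line, at the start in PRKCI and PIK3CA. In PRKCI, set A had 2.26 and 2.92 scaled kb, set B 2.88 to 6.04 kb and set C 1.62 to 9.12 kb, and the sets overlapped (exact permutation p = 0.3, 0.467 and 0.461 for A against B, A against C and B against C). Its start region, 169938128 to 169942322, was acetylated in all 13 lines, and the other 10 regions in at most 4. In the bin of the PRKCI start, 169900001 to 169950000, every set B line was above every set C line (4.27 ± 1.54 kb, n = 3, against 2.07 ± 0.470 kb, n = 8), which 1.63% of all bins also showed, and the difference of 0.76 did not pass (limma adjusted p = 0.36). HCC95 had 4 Sox2 peaks in PRKCI, the start included, at 91.3% of its list. The highest Sox2 peak by rank in an unmodified line was in KNS62, at 170025450 to 170026245 (18.8% of its list), also listed in HCC95. LK2 had no Sox2 peak in the window, and no line had Brn2 or p63. At 170018796 to 170020508 both derivatives had a Sox2 peak on their own H3K27ac. It stood at 7.78% of the list in LK2_DNp63 and at 46.3% in LK2_GFP. NCI-H520 had Sox2 at that site as well (89.1% of its list), and no unmodified line had H3K27ac there. The RefSeq promoter of PRKCI holds CATTGT at 2 places, as shown above.

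PIK3CA had 5.21 ± 2.79 scaled kb in set A (n = 2), 5.04 ± 1.11 kb in set B (n = 3) and 3.31 ± 0.944 kb in set C (n = 8). Set B minus set C was 1.73 kb, with a two-sided exact permutation p of 0.0303, although the lowest set B line, KNS62 at 3.81 kb, was below the highest of set C, HARA at 4.60 kb. Without the flanks the difference was 0.857 kb and the exact permutation p 0.103. Without scaling the exact permutation p was 0.236, with equal numbers of top peaks 0.0788, and leaving out HCC95 gave 0.156 and HCC2814 0.133. In the bin of the start, from 178850001, the largest difference was 0.52 for set A minus set C, which did not pass (limma adjusted p = 0.25). The start region, 178864306 to 178868635, was in all 13 lines, and Sox2 lay on it in HCC95 and HCC2814 but not in LK2, NCI-H520 or KNS62. The derivative LK2_GFP also had a Sox2 peak on it, at 178864916 to 178866267, with H3K27ac of its own. At 178903853 to 178904818, inside the gene, LK2, NCI-H520 and HCC2814 had Sox2 (11.1% of the list in HCC2814), and no line had H3K27ac. HCC95 had 6 Sox2 peaks in the window, 1 of them, at 178850037 to 178850656, with a p63 peak of LK2_DNp63. Brn2 was not listed.

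DCUN1D1 had 3.61 ± 2.03 scaled kb in set A (n = 2), 4.36 ± 3.35 kb in set B (n = 3) and 2.42 ± 1.27 kb in set C (n = 8), with exact permutation p of 0.9, 0.244 and 0.133 for A against B, A against C and B against C. In its tested bin, from 182650001, the largest difference was 0.51 for set B minus set C, which did not pass (limma adjusted p = 0.54). It was the 1 gene of the 7 with no Sox2 peak in any list. A Brn2 peak of LK2 at 182698277 to 182698491 lay in its region acetylated in all 13 lines, 182695766 to 182699305. Within 2 kb of the high end, where the strand places the first start, none of the 13 lines had a peak. RefSeq lists 2 starts on GRCh38.p14, 5380 bases apart. Counted from the high end, the region in all 13 lines begins 4.7 kb inside and is 3540 bp long. By distance the second start falls in that region, although the builds were not aligned.

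Across the 7 windows, Sox2 peaks numbered 28 in HCC95, 18 in LK2, 17 in HCC2814, 16 in KNS62 and 14 in NCI-H520. HCC95 also had the longest Sox2 list (14048 peaks) and is the line without an input. Whether that bears on its count was not tested. The share on H3K27ac of the same line was highest in KNS62, at 14 of 16 (87.5%, Wilson 95% interval 64.0 to 96.5%), against 60.6% of its whole list, and 10 of those 16 peaks lie in MECOM. It was 9 of 18 in LK2 (50%, whole list 39.5%), 9 of 14 in NCI-H520 (64.3%, whole list 60.9%), 20 of 28 in HCC95 (71.4%, whole list 56.1%) and 9 of 17 in HCC2814 (52.9%, whole list 38.3%), and each of these lists' shares lay within the interval of the windows' share. In the derivatives it was 13 of 27 in LK2_GFP (48.1%, whole list 43.9%) and 7 of 10 in LK2_DNp63 (70%, whole list 45.5%). Of the Brn2 peaks, 12 of 20 in LK2 and 2 of 4 in NCI-H520 lay on H3K27ac (whole lists 52.1% and 66.9%), and of the p63 peaks 4 of 5 (whole list 47.7%). The intervals cover counting error only and take the peaks as independent. Some neighbouring Sox2 peaks of KNS62 lay in the same H3K27ac peak, so the intervals can be too narrow and set no line apart. Of the 54 merged Sox2 sites of the 5 lines, 12 were in set A alone, 31 in set B alone, 10 in lines of both sets and 1 in all 5 lines. Of all Sox2 sites in the genome 36.6%, 53.6%, 8.97% and 0.819% fell into these classes. Brn2 peaks numbered 20 in LK2 and 4 in NCI-H520, and 13 of the 20 (65%) and 1 of the 4 (25%) overlapped Sox2 of the same line, beside 39.9% and 18.2% of the whole lists. ETV5 supplied 8 of the 20 peaks and 5 of the 13 overlaps in LK2, and 2 of the 4 peaks and the 1 overlap in NCI-H520. As part of that overlap was known when the gene was chosen, these shares are a description. The Brn2 chromatin was fixed and cut differently from the rest, and the NCI-H520 Brn2 list was the shortest of all, with 1298 peaks. Brn2 in LK2 was listed in MECOM (5), ECT2 (3), TBL1XR1 (3), DCUN1D1 (1) and ETV5 (8), and in NCI-H520 in MECOM (1), ECT2 (1) and ETV5 (2). Of the 5 p63 peaks, 1 overlapped Sox2 of LK2_DNp63, in ETV5, against 9.56% of the whole list.

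**Figure D5:**
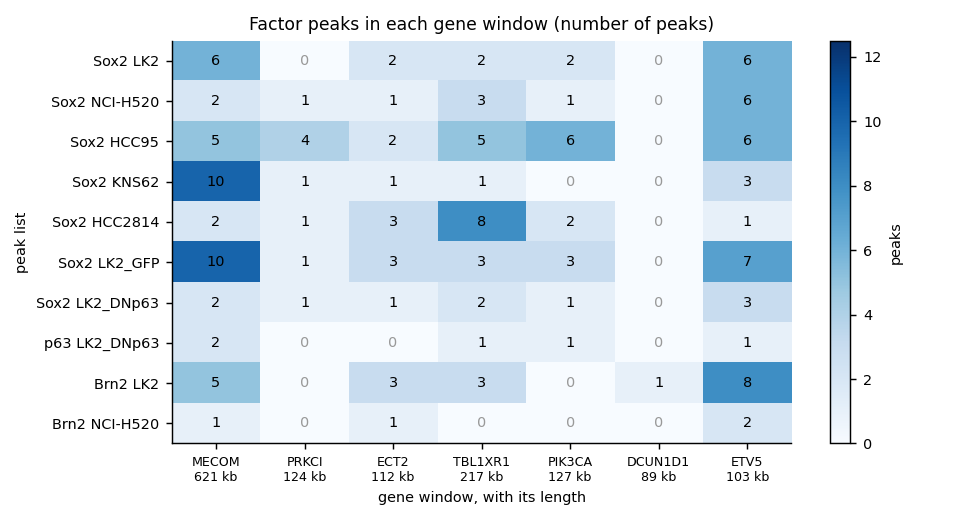
Number of peaks of each factor list (rows) in each gene window (columns, with the window length in kb); darker blue is more peaks. The highest counts are 10 in MECOM for Sox2 of KNS62 and of LK2_GFP, followed by 8 in TBL1XR1 for Sox2 of HCC2814 and 8 in ETV5 for Brn2 of LK2.

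The merged H3K27ac regions of the windows fell into classes much as in the genome. Of 85 regions, 5 (5.88%) were in all 13 lines, against 6.64% of 114125, and these were the start regions of PRKCI, ECT2, TBL1XR1 and PIK3CA and the region in DCUN1D1. In both set A lines and no other there were 3 (3.53%), 2 in ETV5 and 1 in ECT2, against 1.84%. In several lines but no set A line there were 24 (28.2%), against 28.1%, and 16 of them were in MECOM. In 1 line alone there were 37 (43.5%), against 50.7%.

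In kb, the LK2 derivatives differed most in ETV5, and as a ratio in MECOM. Scaled length there was 25.1 kb in LK2_DNp63, 36.7 kb in LK2_GFP and 34.7 kb in LK2, and Sox2 peaks numbered 3, 7 and 6. In the bin from 185750001 the values were 4.47, 14.2 and 15.2 kb, and in the bin from 185800001 they were 20.7, 22.5 and 19.4 kb. The lower length of LK2_DNp63 was thus mostly in the stretch that LK2 and NCI-H520 shared, where it kept a Sox2 peak at 1 of the 5 sites, 185786438 to 185787665. LK2_GFP had no H3K27ac at the low end of the span, where LK2 had some. In ECT2 the scaled lengths were 3.36, 7.49 and 9.91 kb. MECOM went the other way, with 5.81, 1.07 and 2.92 kb. Most of its length in LK2_DNp63 lay in the bin from 169350001, at the high end, with 4.06, 1.07 and 1.80 kb. No p63 peak was listed in that bin. In the bin from 168800001, at the low end, the values were 1.33, 0 and 0 kb. LK2_DNp63 had a p63 peak on its own H3K27ac at 168803640 to 168804301. LK2 and LK2_GFP had no H3K27ac there, and LK2_GFP had a Sox2 peak. The 3 stood close together in TBL1XR1 (20.2, 19.2 and 21.2 kb), PIK3CA (5.81, 5.84 and 7.18 kb) and DCUN1D1 (4.82, 4.95 and 5.04 kb). In PRKCI both derivatives, at 7.16 and 6.80 kb, were above LK2 at 2.92 kb. In the bin from 170000001, which holds the Sox2 site of both derivatives, LK2_DNp63 had 3.17 kb, LK2_GFP 3.31 kb and LK2 0 kb. With 1 library each, these differences have no replicate check and were not tested, and the Sox2 list of LK2_DNp63 was shorter throughout the genome (4217 peaks, against 12034 in LK2_GFP).

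Over the 13 lines, the scaled lengths on the log2 scale of ETV5 were most like those of ECT2 (Pearson r = 0.61), those of TBL1XR1 most like PIK3CA (0.73), those of DCUN1D1 most like PIK3CA (0.63) and those of PRKCI most like DCUN1D1 (0.58). MECOM was like none, with its highest r at -0.01 (PRKCI) and -0.84 with ECT2. These values are a description over 13 lines that share libraries and a chromosome arm, and the scaling to an equal total links all windows of a library.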

How the data were processed

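The authors deposited 1 peak list per sample with a score per peak, on hg19. Bowtie2 is named as the aligner, with no version, per the submitters' processing notes. Peak names begin with MACS, per the deposited files; no source used here gives the caller's version, threshold or use of inputs. The deposited score was used for ranks inside a list and nothing else.

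Autosomal and X peaks entered. H3K27ac length per window, scaled so that every library had the same total, was tested over lines by exact permutation (two-sided), 21 tests without adjustment, of which 4 had p under 0.05. Length per 50 kb bin was tested with limma 3.58.1 (R 4.3.3) on log2(scaled length + 1000 bp), 3 sets in 1 fit and with trended variance, over the 9148 bins averaging 2000 bp or more, with Benjamini-Hochberg adjustment over all bins; 13 of the 36 bins touching the windows passed the filter, and such bins can reach beyond a window. Log2 values of repeat libraries were averaged. Overlap was 1 bp. The script was tested on simulated data. Genes and lists were chosen with earlier results of these data known. Named were all 7 genes, every called bin, the bin with the largest difference per window, sites with peaks in several lists and the highest-ranked peak of each factor. A list of other genes on the arm needed an hg19 annotation and was not used here; all bins between the outer windows stand in for it.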

Additional observations from a re-analysis of the deposited data

Results flagged for a closer look

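In the PRKCI window, LC-1/SQSF had 9.12 scaled kb of H3K27ac, far above the other 7 lines of set C, of which the nearest, NCI-H2887, had 3.82 kb and the lowest, EBC-1, 1.62 kb. The gap was 0.707 of the range, over the limit of 0.526 for 8 samples, in 1 of 7 groups tested; chance flags about 1 in 20 groups. The same line also covered the most of the neighbourhood of the 7 windows (1.47% of its list, against 0.590 to 1.33% in the other unmodified libraries), and its part in the PRKCI value was not tested. Without LC-1/SQSF, set B minus set C in PRKCI was 2.11 kb (exact permutation p = 0.0417), against 1.33 kb with it (exact permutation p = 0.461). The line was left out for its high value, which must widen the difference, so the lower p is a description.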

How the results depend on the processing

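The ETV5 bin at 185750001 kept its call in every alternative in which it was tested with both set A lines. These fits share the limit given above, that most lines outside set A were at 0 in the bin. The highest limma adjusted p was 0.0116 against set B and 0.00310 against set C. The bin was not tested without NCI-H520 and with 25 kb bins, where it fell under the filter or was split. Fits with 1 set A line are not counted here, since a lone line has no spread of its own. Called bins touching the windows numbered 2 for set A against set B and 4 against set C. Without scaling they were 1 and 2, with equal numbers of top peaks 1 and 1, with 25 kb bins 0 and 1 (2 and 3 with a minimum of 1000 bp, chosen after seeing the data), and against set B 1 with replicate 1 alone and 1 with the compared sets alone. Leaving out a line gave 0 to 2 against set B and 0 to 5 against set C; the 0 was without NCI-H520, and 2 and 2 without it and without the filter (chosen after seeing the data); the line left in set A is then assumed to vary like the other sets. All bins called ranged from 184 to 2494 and from 296 to 2741. Without scaling the median of all bins moved by -0.30, -0.51 and -0.19 (A against B, A against C, B against C), and the calls against set C split into 198 higher and 932 lower, against 512 and 700.

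Of the window values under alternatives, 265 kept their sign and their side of 0.05, 18 kept their sign and lost p under 0.05, 5 gained it and 20 changed sign. No ETV5 or ECT2 value changed sign, but both lost p under 0.05 against set C without either set A line (exact permutation p = 0.111), and ECT2 without scaling (0.156). No scaling gave -2.02 (TBL1XR1, A against B), -1.55 and -0.393 (PIK3CA, A against B and C) and -0.584 kb (DCUN1D1, A against C). Equal numbers of top peaks gave -0.661 (MECOM, B against C), 0.146 (PRKCI, A against C), -0.0788 (PIK3CA, A against B) and 0.293 kb (DCUN1D1, A against B). No flank gave -0.548 kb (TBL1XR1, A against B) and a flank of 50 kb 0.189 kb (PRKCI, A against C). Replicate 1 alone gave -0.724 kb (PIK3CA) and replicate 2 alone 0.336 kb (DCUN1D1), both A against B. Leaving out 1 line gave ranges of -2.43 to 5.25 kb (TBL1XR1, A against B), -1.81 to 2.14 and -0.0766 to 3.87 kb (PIK3CA, A against B and C), -2.19 to 1.17 and -0.250 to 2.62 kb (DCUN1D1, A against B and C) and -11.2 to 12.2 kb (MECOM, B against C). The causes were not tested. With the lower 50% of each list by score left out, which also leaves fewer Brn2 peaks to count, Brn2 peaks of LK2 on Sox2 numbered 6 in place of 13, and without flanks that of NCI-H520 was 0 in place of 1. DCUN1D1 had 7 lines acetylated within 5 kb of the high end and 0 within 2 kb.

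No paired analysis was possible because the replicate numbers shared by LK2 and NCI-H520 mark libraries of 1 line that were averaged, and those lines were not compared with each other. The sequencing depth is unknown, and list length stands for how much was called. With 2 lines in set A, the exact tests cannot fall below 0.0222 against set C and 0.1 against set B, and leaving out either line raises the former to 0.111. Every other line has 1 library, and set A also differs from the rest in list length: LK2 had the shortest H3K27ac cover.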
